A study of Mus musculus with 16 samples.

Results

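Hmox1-positive proximal tubule cells are kidney tubule cells that carry RNA of heme oxygenase 1, the enzyme that opens the heme ring into biliverdin, iron and carbon monoxide. They were chosen from 4 single-cell RNA libraries as cells with at least 2 Hmox1 UMIs (unique molecular identifiers, 1 for each captured RNA molecule), at least 5 UMIs of the proximal tubule genes Miox, Ass1 and Fbp1 together, and at most 2 UMIs of the macrophage genes C1qa, C1qb and C1qc together. These limits found 785 cells among 24975 that were kept and among 13166 that met the Miox, Ass1, Fbp1 and C1q limits, called gated proximal cells below. The study set kidneys of wild type mice beside kidneys of Gulo-/- mice, both on C57BL/6. Gulo makes the enzyme of the last step of vitamin C synthesis, so Gulo-/- mice depend on dietary vitamin C. Each genotype had 2 single-cell libraries. The kidneys were chopped and mixed, and 1 part of the mix went to the single-cell libraries. The labels give no age, diet or treatment. Nothing in them states that each library was made from a different mouse, and the p-values below therefore cover the spread between these samples alone, which may be technical.

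Heme oxygenase 1 is a low-abundance protein of resting kidney that is induced by heme, oxidants and metals. Heme releases the repressor BACH1 from the gene's enhancers, and oxidants stabilise NRF2, an activator that also drives glutathione and NADPH enzymes such as Gclm, Nqo1 and Txnrd1. Proximal tubule cells meet heme when filtered haemoglobin and myoglobin are taken up through megalin and cubilin, and the freed iron is stored in ferritin, whose chains are encoded by Fth1 and Ftl1. The proximal tubule runs through an early segment, S1, with the glucose transporter Slc5a2, and later segments, S2 and S3, with organic anion transporters and, in male mice, high Kap.

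The libraries differed in ways that the genotype does not explain. Before filtering they held between 10073836 and 88925323 UMIs, and each genotype had 1 shallow and 1 deep library. By their Xist and Ddx3y counts the female libraries were wild type replicate 1 and Gulo-/- replicate 2, and the other two were male. Wild type replicates 1 and 2 shared 986 barcodes, and these were dropped from replicate 2. No barcode was shared between the Hmox1-positive cells of any pair of libraries. Gulo had at most 2 UMIs in any library, with 0 and 1 in wild type replicates 1 and 2, so its absence in the Gulo-/- libraries could not be checked from these counts. Wild type replicate 2 stood apart from the other 3 libraries in the Hmox1-positive cells themselves, as described next, and values without it are given beside the main results.

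The 785 cells came from all 4 libraries, of which wild type replicates 1 and 2 gave 108 and 200 and Gulo-/- replicates 1 and 2 gave 205 and 272. Of the wild type replicate 2 cells, 163 of 200 held exactly 2 Hmox1 UMIs and 3 held 5 or more. In the other libraries cells with 5 or more were 22 of 108 in wild type replicate 1, 57 of 205 in Gulo-/- replicate 1 and 28 of 272 in Gulo-/- replicate 2. The highest count in a cell was 39 Hmox1 UMIs, in Gulo-/- replicate 1, against 15, 10 and 11 in wild type replicates 1 and 2 and Gulo-/- replicate 2. The rule fixes the high Hmox1 level, which was 365, 206, 792 and 483 CPM (the UMIs of a gene scaled to a common total over the summed cells) in wild type replicates 1 and 2 and Gulo-/- replicates 1 and 2. Just outside the limit lay 1744 gated cells with 1 Hmox1 UMI, which were 172, 897, 133 and 542 in the same order.

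The proposed markers of these cells were Hmox1, Gsta4, Npl and Ass1, and they marked the cells unevenly between libraries. Npl, the lyase that splits sialic acid, stood at 259.7, 57.4, 361 and 262 CPM in Hmox1-positive cells of wild type replicates 1 and 2 and Gulo-/- replicates 1 and 2. In gated cells without any Hmox1 UMI, called Hmox1-zero cells below, Npl stood at 113, 42.5, 159.5 and 118 CPM. Gsta4, a glutathione transferase that detoxifies the lipid peroxidation product 4-hydroxynonenal, stood at 469, 17.2, 532 and 499 CPM in positive and 565, 23.3, 306 and 334 CPM in zero cells. Gsta4 was thus nearly absent from both kinds of cell in wild type replicate 2, and it was lower in positive than in zero cells of wild type replicate 1. Both Gsta4 and Npl were detected in 72.2% of the positive cells of wild type replicate 1, in 57.1% and 59.2% of those of Gulo-/- replicates 1 and 2, and in 5.0% of those of wild type replicate 2. In zero cells these shares were 27.7%, 29.8%, 28.2% and 3.05%. Positive cells are deeper, as given below, and thinned to 2000 UMIs a cell, Gsta4 was found in 47.7%, 3.0%, 58.99% and 55.8% of positive cells of wild type replicates 1 and 2 and Gulo-/- replicates 1 and 2, and in 60.1%, 4.37%, 41.0% and 47.6% of zero cells. At equal depth Gsta4 was thus found more often in positive cells of the Gulo-/- libraries and less often in those of wild type replicate 1. In wild type replicate 2 it was too rare in both kinds of cell for a direction to be read. Npl, thinned in the same way, was found in 41.1%, 13%, 48.9% and 41.2% of positive and 19.8%, 8.52%, 26.9% and 22.4% of zero cells, and was higher in positive cells of all 4 libraries.

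The 3 genes of the gate were used to choose the cells, and their levels are a description. Ass1, the argininosuccinate synthase of arginine synthesis, stood at 7179, 2934, 4192 and 3110.1 CPM in positive and 5567, 2244, 4365 and 2530.5 CPM in zero cells. Miox, which breaks down myo-inositol, stood at 8125, 3904, 2305 and 1984 CPM in positive and 8459.7, 3091, 2681 and 1871 CPM in zero cells. Fbp1, an enzyme of gluconeogenesis, stood at 2479, 1383, 1036 and 919 CPM in positive and 1725, 1009.7, 754 and 597 CPM in zero cells and was higher in positive cells of all 4 libraries. The macrophage gene C1qa, held low by the rule, stood at 1.95, 8.59, 4.63 and 1.21 CPM in positive and 1.31, 8.04, 4.85 and 1.30 CPM in zero cells, C1qb at 1.95, 10.4, 5.55 and 3.02 against 2.44, 10.6, 8.57 and 3.14 CPM, and C1qc ranged from 0.976 to 5.55 CPM in positive and from 1.49 to 4.61 CPM in zero cells. Both kinds of cell met the same minimum for the sum of these genes.

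Positive cells were more deeply sampled than zero cells in every library. Their median depth, in UMIs, was 8248.5 against 3566.5 in zero cells of wild type replicate 1 and 10246.5 against 4866 in wild type replicate 2. The Gulo-/- replicates gave 5102 against 3179 and 4887.5 against 3651. A deeper cell reaches 2 Hmox1 UMIs more easily, so depth-matched comparisons are given beside the results that depth could touch. The share of mitochondrial UMIs had a median of 8.5%, 12.6%, 13.4% and 15.2% in positive cells, below the 18.5%, 24.96%, 19.4% and 19.0% of zero cells. Scrublet scores marked 1, 20, 6 and 43 positive cells as the likeliest doublets.

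Markers of other cell types were found on many of these barcodes in the deep libraries. At least 3 UMIs of another cell type's list were carried by 4.63% and 84.0% of the positive cells of wild type replicates 1 and 2, and by 19.0% and 78.7% of those of Gulo-/- replicates 1 and 2. Zero cells had shares of 8.51%, 54.8%, 14.7% and 73.6%. In wild type replicate 2 the genes were mostly haemoglobins, the 6 erythroid genes summing to 2655 CPM in positive and 1702 CPM in zero cells. In Gulo-/- replicate 2 they were mostly of the thick ascending limb, summing to 2293 CPM in positive and 3625 CPM in zero cells, and of principal cells, with 1607 and 2518 CPM. Macrophage genes other than C1q summed to 763 CPM in positive and 237 CPM in zero cells of Gulo-/- replicate 2, and were lower in positive cells of the other 3 libraries. Each fit between positive and zero cells is also given without the cells that carry these genes.

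The first comparison asked how common Hmox1-positive cells were among proximal cells of each genotype. They made up 8.07% (108 of 1338) and 3.0% (200 of 6666) of gated proximal cells in wild type replicates 1 and 2. In Gulo-/- replicates 1 and 2 they made up 21.2% (205 of 965) and 6.48% (272 of 4197). The Gulo-/- mean of 13.9% ± 10.4 (SD, n = 2) lay 8.33 points above the wild type mean of 5.54% ± 3.59 (SD, n = 2). Gulo-/- replicate 1 was the highest and wild type replicate 2 the lowest, but the groups overlapped, and the difference was not beyond the spread (two-sided exact permutation test, p = 0.667, the smallest possible being 0.333). Without Gulo-/- replicate 1 the difference was 0.945 points, and without wild type replicate 2 it was 5.79 points. Between the female libraries the share was 8.07% in wild type and 6.48% in Gulo-/-, and between the male libraries it was 3.0% and 21.2%.

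When every cell was thinned to 2000 UMIs, at least 2 Hmox1 UMIs were found in 2.69% and 0.188% of gated cells of wild type replicates 1 and 2 and in 11.8% and 3.30% of those of Gulo-/- replicates 1 and 2. Both Gulo-/- libraries were then above both wild type libraries, with a difference of 6.11 points (exact permutation p = 0.333, the smallest possible). In 20 further random draws this order held in 18. Thinning left out 124, 172, 233 and 196 gated cells for lack of depth. The gate was applied again to the thinned counts, so further cells fell below its limit. Gated cells then numbered 1190, 5844, 661 and 3150, in place of 1338, 6666, 965 and 4197. Among cells with at most 2 C1q UMIs that lay outside the gate after thinning, the shares were 0.457%, 0.146%, 1.28% and 0.186%. In wild type replicate 2 these were 1373 cells, against 741 outside the gate as counted. They thus include proximal cells moved out by thinning, and the 0.146% is no measure of non-proximal cells. With at least 1 Hmox1 UMI as the limit after thinning, gated cells gave 11.1%, 6.16%, 28.3% and 12.8%, and cells outside the gate gave 5.48%, 3.57%, 6.25% and 2.41%. Taken over all kept cells in place of gated cells, the shares were 6.77%, 2.65%, 10.9% and 1.95%, and Gulo-/- replicate 2 was then the lowest.

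The Hmox1 level summed over all gated cells followed the same order. It was 71.99, 30.8, 226 and 62.96 CPM in wild type replicates 1 and 2 and Gulo-/- replicates 1 and 2, and the groups overlapped. The fitted log2 difference, Gulo-/- over wild type, was 1.25 ± 0.87 (SE), with an adjusted p of 0.504. Without Gulo-/- replicate 1 it became -0.25 with an adjusted p of 0.877, so the direction rested on that library. In bulk sums such as these, more cells with Hmox1 and more Hmox1 RNA per cell cannot be told apart.

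Hmox1-positive cells leaned to the first segment in 3 libraries and not in the fourth. The UMIs of 8 S1 genes in a cell were set against those of the S2 and S3 lists, with the S3 gene Gsta2 left out. The S1 genes led in 88.0%, 75.6% and 92.6% of positive cells of wild type replicate 1 and Gulo-/- replicates 1 and 2. The zero cells of these libraries gave 48.9%, 34.6% and 67.3%. In wild type replicate 2 the share was 30.5% in positive and 30.7% in zero cells. In positive cells the S3 list with Gsta2 summed to 3125 and 1623 CPM in wild type replicates 1 and 2. The Gulo-/- replicates gave 2217 and 1530 CPM. The S1 list summed to 2591, 901, 2314 and 2865 CPM in the same order. The split with Gsta2 kept in was not run. Seen from the other side, 33.8% of the S1-led gated cells of Gulo-/- replicate 1 were Hmox1-positive (155 of 459), against 5.82% of its S2-led and S3-led cells (22 of 378). The same shares were 13.0% and 1.81% in wild type replicate 1, 8.38% and 0.827% in Gulo-/- replicate 2, and 3.0% and 3.17% in wild type replicate 2.

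Over the 4 libraries the share was higher among S1-led cells by a mean of 11.6 points ± 11.9 (SD, n = 4), higher in 3 of 4 (exact sign-flip test over libraries, p = 0.25, the smallest possible being 0.125). With wild type replicate 2 left out it was 15.6 points ± 10.9 (SD, n = 3; exact p = 0.25, the smallest possible). Thinned to 2000 UMIs, with the limit of at least 2 Hmox1 UMIs, the S1-led cells stood higher in 3 of 4 libraries. The mean was 6.48 points ± 8.29 (SD, n = 4; exact sign-flip p = 0.25), and wild type replicate 2 gave 0.174% in both kinds. Thinned in the same way, with at least 1 Hmox1 UMI, the S1-led cells stood above the others in 4 of 4 libraries, by 13.3 points ± 12.5 (SD, n = 4; exact p = 0.125, the smallest possible), and by 17.4 points ± 11.5 (SD, n = 3) without wild type replicate 2. Those thinned shares were 15.5% and 5.19% in wild type replicate 1, and wild type replicate 2 gave 6.65% and 5.77%. Gulo-/- replicate 1 gave 40.3% and 9.62%, and Gulo-/- replicate 2 gave 15.4% and 4.10%. The design with 4 libraries cannot reach a smaller p.

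**Figure D1:**
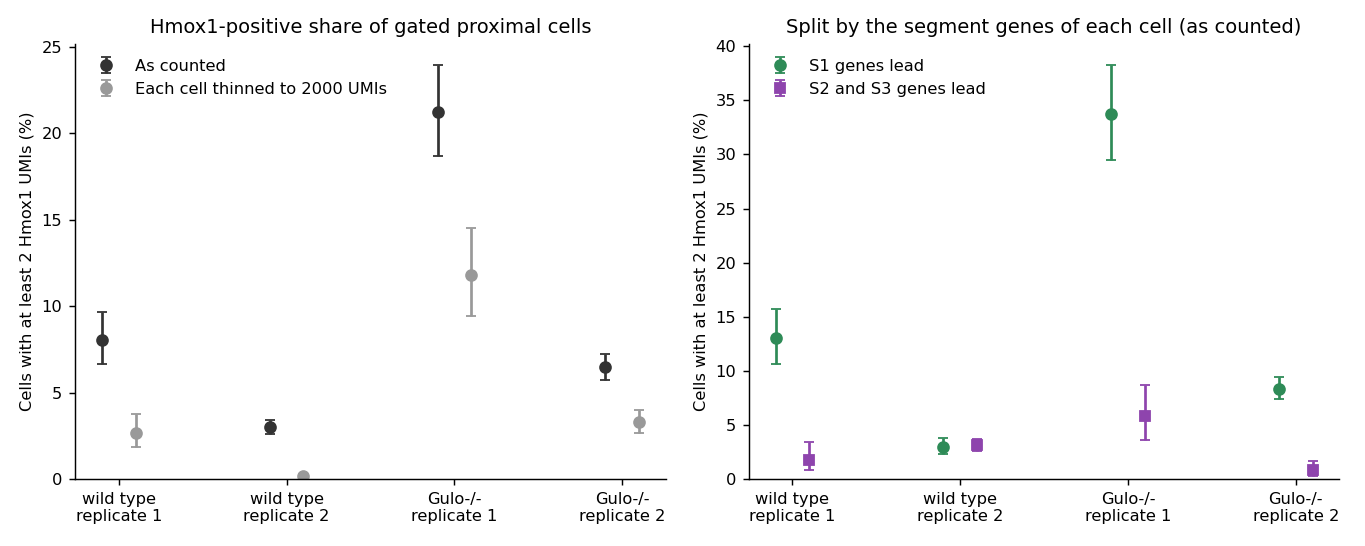
Share of gated proximal cells with at least 2 Hmox1 UMIs (y axis, percent) in each of the 4 libraries (x axis), with 95% exact binomial intervals that cover counting error only. Left, as counted (8.07%, 3.0%, 21.2% and 6.48%) and after thinning each cell to 2000 UMIs. Right, split by whether S1 genes or S2 and S3 genes (without Gsta2) lead in a cell. S1-led cells stand higher in 3 of the 4 libraries.

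Few S2-led or S3-led cells were positive outside wild type replicate 2. They were 9 cells in wild type replicate 1, 22 in Gulo-/- replicate 1 and 7 in Gulo-/- replicate 2, against 134 in wild type replicate 2. The 22 cells of Gulo-/- replicate 1 held 812 CPM of Hmox1 and 436 CPM of Npl, beside 753 and 342 CPM in its 155 S1-led positive cells. Slc5a2 stood at 0 CPM beside 271 CPM, but it is one of the S1 genes that made this split, so its level is a description. The 134 cells of wild type replicate 2 held 199 CPM of Hmox1, 21.0 CPM of Npl and 4.45 CPM of Gsta4. Its 61 S1-led positive cells held 219 CPM of Hmox1, 146 CPM of Npl and 51.5 CPM of Gsta4. Npl was thus higher in the S1-led positive cells of wild type replicate 2 than in its other positive cells, though at a lower level than in the other libraries.

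Several genes differed with the Hmox1 count of a cell, described here with no test. Ftl1, the ferritin light chain, stood at 8101 CPM in cells of Gulo-/- replicate 1 with 0 Hmox1 UMIs, at 11199 CPM with 1, at 10841 CPM with 2, at 13628 CPM with 3 to 4 and at 15968 CPM with 5 or more. Npl in the same cells stood at 160 CPM with 0 and at 484 CPM with 5 or more. Slc5a2, the S1 glucose transporter, went from 51.4 CPM with 0 to 208 CPM with 2 and 234 CPM with 5 or more. Kap, the androgen-driven kidney protein of the later segments, went the other way, from 4669 CPM with 0 to 91.1 CPM with 2 and 86.2 CPM with 5 or more. In wild type replicate 1 Kap had no such order, with 2367 CPM at 0, 107 CPM at 2, 4472 CPM at 3 to 4 and 53.9 CPM at 5 or more. In wild type replicate 2 Kap remained at 19112 CPM with 0 and 17811 CPM with 2, and Slc5a2 at 107 and 111 CPM. The change between 1 and 2 Hmox1 UMIs, just outside and inside the limit, was from 131.9 to 38.2 CPM for Kap and from 213 to 316 CPM for Slc5a2 in Gulo-/- replicate 2.

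**Figure D2:**
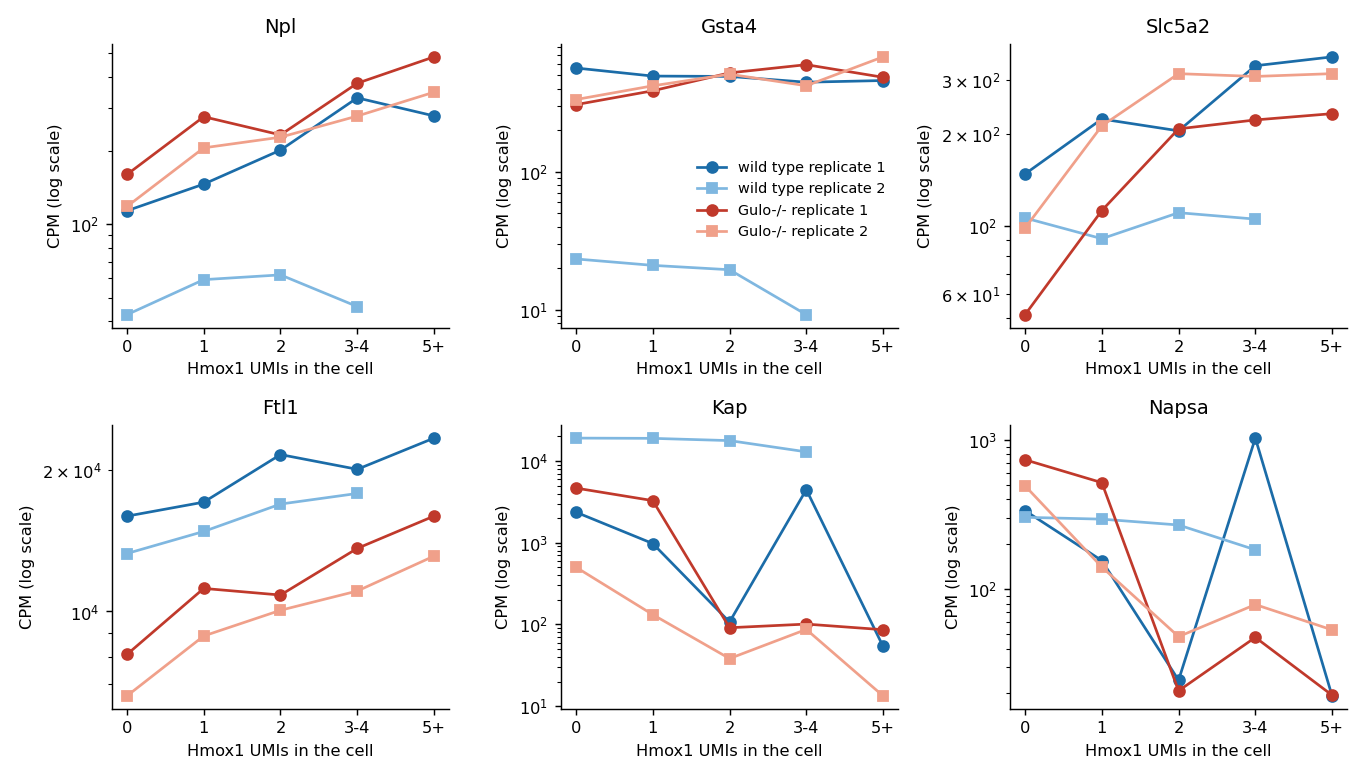
Level of selected genes (y axis, CPM, log scale) in gated proximal cells by the number of Hmox1 UMIs in the cell (x axis), with 1 line for each library. Groups of under 5 cells are left out. In Gulo-/- replicate 1 Ftl1 goes from 8101 to 15968 CPM and Kap from 4669 to 86.2 CPM, while Kap stays at 12968 CPM or above in wild type replicate 2.

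The second comparison asked what else differed between Hmox1-positive and Hmox1-zero cells of the same library. The ferritin genes Ftl1 and Fth1, the arginine synthesis gene Asl and the aldehyde reductase gene Akr1a1 were higher in positive cells. Immediate early genes, the heat shock gene Hspa1a, endothelial genes and Serpina1a were lower. Without cells carrying genes of other types, Fth1, Akr1a1, Hspa1a and the immediate early genes that could be tested were not called, as given below. Only 1 endothelial gene could be tested there, and it was not called. In the paired fit over 4 libraries 143 of 8893 tested genes (1.61%) were higher and 240 (2.7%) were lower at an adjusted p under 0.05. All 4 libraries had the direction of the fit for 142 of the 143 and 226 of the 240. A gene called over these 4 libraries is nearly bound to keep its direction in each, and with 1 left out. Such counts, here and just below, therefore add no evidence, and the share over all tested genes was not counted. Hmox1, Gsta4, Npl and the genes of the gate were left out of this fit. Without Gulo-/- replicate 1, 45 genes were called, 40 of them among the 383, but all 382 called genes that could be tested kept their direction, and their median absolute log2 difference was 0.64 beside 0.68 in the fit over 4 libraries. Without Gulo-/- replicate 2 there were 108 calls, 78 of them among the 383, and 348 of 348 kept their direction with a median absolute log2 difference of 0.63 beside 0.64. Without wild type replicate 2 there were 775, 261 higher and 514 lower, and they held 338 of the 382 called genes that could be tested.

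The genes of both ferritin chains were higher in Hmox1-positive cells. Ftl1 stood at 21589, 16920.1, 13416 and 10849.5 CPM in wild type replicates 1 and 2 and Gulo-/- replicates 1 and 2 against 15964, 13291, 8101 and 6609.6 CPM in zero cells (log2 difference 0.56 ± 0.10, adjusted p = 0.00254). Fth1, the ferritin heavy chain, stood at 17418, 20118, 17613 and 13371 CPM against 15846, 16682, 11807 and 9818 CPM (log2 difference 0.36 ± 0.10, adjusted p = 0.0392). The Fth1 call ended with depth-matched zero cells (adjusted p = 0.0583) and without cells carrying genes of other types (adjusted p = 0.592). Por, the reductase that supplies electrons to heme oxygenase, was lower, at 31.2, 41.6, 83.3 and 31.98 CPM against 58.1, 55.3, 96.5 and 51.1 CPM (log2 difference -0.51 ± 0.14, adjusted p = 0.0307), and its call ended with depth-matched zero cells (adjusted p = 0.0532). Of the 21 heme and iron genes tested, 2 were higher and 1 lower, and their median log2 difference was 0.03 beside -0.01 over all genes. The biliverdin reductases Blvra and Blvrb, next in the pathway after heme oxygenase, gave log2 differences of -0.22 and 0.03, and the iron exporter Slc40a1 gave 0.28, none of which passed the test.

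The NRF2 targets as a list stood near the level of all genes. Of 31 tested, 2 were higher, 1 was lower and the median log2 difference was -0.08. The 2 were Gsta2, a glutathione transferase, at 3050.5, 1089, 2109.6 and 1490.2 CPM against 2638, 769, 1336 and 935 CPM (log2 difference 0.51 ± 0.10, adjusted p = 0.00637), and the peroxiredoxin Prdx1, at 3628, 3352, 1955 and 2376 CPM against 2879.7, 2572, 1439 and 1719 CPM (log2 difference 0.40 ± 0.08, adjusted p = 0.00714). Gstm2, another transferase, was lower (log2 difference -0.78 ± 0.21, adjusted p = 0.0319). Without cells carrying genes of other types the calls of Gsta2 and Prdx1 ended (adjusted p = 0.513 and 0.254), Gstm2 turned to a log2 difference of 0.22, and the list held 0 higher and 6 lower genes. Nqo1, a quinone reductase often used as an NRF2 readout, stood at 23.4, 47.9, 16.7 and 14.5 CPM in positive and 35.8, 34.6, 56.7 and 30.7 CPM in zero cells, higher in wild type replicate 2 and lower in the other 3 libraries (log2 difference -0.55 ± 0.38, adjusted p = 0.542). Without wild type replicate 2 Nqo1 was lower, with a log2 difference of -1.13, and the list then held 2 higher and 7 lower genes. Gclm, a subunit of the enzyme that limits glutathione synthesis, stood at 334, 484, 211 and 219.6 CPM against 337, 347, 171 and 158 CPM (log2 difference 0.31 ± 0.10, adjusted p = 0.0918). Gclc, its catalytic subunit, and the thioredoxin reductase Txnrd1 gave log2 differences of -0.08 and 0.06. Among 10 regulators of the pathway, Nfe2l1 was lower (log2 difference -0.75 ± 0.18, adjusted p = 0.0197) and no other passed the test, Nfe2l2, which encodes NRF2, giving -0.45 with an adjusted p of 0.0942.

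Other stress lists also had few or no called higher genes in the Hmox1-positive cells. Of 16 heat shock genes 3 were lower and none higher, with a median of -0.04. They were Hspa1a, Hspa1b and Cryab. Hspa1a, an inducible HSP70, stood at 27.3, 11.3, 25.9 and 80.8 CPM against 61.1, 34.99, 107 and 163 CPM (log2 difference -1.39 ± 0.15, adjusted p = 2.24e-05), and the small heat shock protein Cryab stood at 52.7, 19.4, 22.2 and 76.6 CPM against 99.5, 31.4, 93.9 and 256 CPM (log2 difference -1.36 ± 0.18, adjusted p = 0.00411). Both calls ended without cells carrying genes of other types (adjusted p = 0.689 and 0.731), where Hspa1b turned to a log2 difference of 0.24. Of 18 genes of the unfolded protein response, the chaperone Hspa5 was lower (log2 difference -0.48 ± 0.11, adjusted p = 0.0134) and the others were not called, with a median of -0.28. The integrated stress response, a list of 17, had 1 higher and 1 lower gene with a median of -0.05, the lower one being Ddit4 (log2 difference -1.01 ± 0.23, adjusted p = 0.0137) and the higher one the transcription factor Cebpb, given below. This list had more higher genes in narrower choices of cells, with 3 higher and 0 lower of 13 in S1-led cells and 2 higher and 0 lower of 12 without cells carrying genes of other types, where its median was 0.20. With depth-matched zero cells 3 of 16 were higher and 2 lower. Of 11 p53 targets Pmaip1 was higher (log2 difference 0.90 ± 0.23, adjusted p = 0.0273) and Btg2 lower (log2 difference -1.61 ± 0.30, adjusted p = 0.0228). With depth-matched zero cells 0 of 9 p53 targets were higher and 1 was lower. In S1-led cells 1 of 8 was higher, and without cells carrying genes of other types 1 of 5, with 0 lower in each. Of 17 tubular injury genes, Spp1, the osteopontin gene, and Anxa3 were lower and none was higher, with a median of -0.61. Spp1 stood at 1003, 167, 1217 and 2179.8 CPM against 1497, 287, 1892 and 2947 CPM (log2 difference -0.61 ± 0.09, adjusted p = 0.000428), and this call ended with depth-matched zero cells (adjusted p = 0.194). Havcr1, the classical marker of tubular injury, was found in 0 of 107, 200, 178 and 267 positive cells thinned to 2000 UMIs, which allows shares of cells with a Havcr1 UMI of up to 2.80%, 1.5%, 1.69% and 1.12%. Zero cells had a Havcr1 UMI in at most 0.037%, and a transcript this rare could be missed at this depth, so nothing is read from it. Counted without adjustment, 4 heat shock, 8 unfolded protein response and 5 injury genes had a p under 0.05, and DESeq2 called 0 of these lists' genes higher. For the integrated stress response and p53 targets 7 and 3 genes had an unadjusted p under 0.05. DESeq2 called 2 higher and 0 lower in the former, and 1 higher and 1 lower in the latter. Without wild type replicate 2, 4 heat shock genes and 3 injury genes were lower and 0 were higher. Of the integrated stress response 3 were then higher and 1 lower, and of p53 targets 1 was higher and 1 lower. Because few genes of the stress lists were called higher, the name "stressed" proposed for the cells is not used, and they are called by their Hmox1 RNA.

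Immediate early genes, which encode transcription factors switched on within minutes by stimuli or tissue handling, were lower in positive cells. Of 20 tested 11 were lower and 0 higher, all 20 had a negative log2 difference, and the median was -0.82. Fos stood at 8.79, 10.9, 24.99 and 203 CPM against 22.3, 25.1, 97.7 and 328 CPM (log2 difference -1.15 ± 0.18, adjusted p = 0.00426). Junb stood at 11.7, 23.1, 35.2 and 185 CPM against 31.5, 37.9, 99.2 and 325 CPM (log2 difference -1.01 ± 0.14, adjusted p = 0.000185), and Ier2 and Ier3 gave log2 differences of -1.15 and -0.99. Without cells carrying genes of other types 0 of 13 was called by edgeR, 2 had an unadjusted p under 0.05, and the median was -0.16. With depth-matched zero cells 8 of 19 were lower, and among S1-led cells 5 of 18. Without Gulo-/- replicate 1, 3 of 21 were lower, and without wild type replicate 2, 14 of 22.

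Some endothelial and thick ascending limb markers were lower in positive cells. Of 9 endothelial genes 4 were lower (Cdh5, Egfl7, Flt1 and Pecam1) and all 9 were negative, with a median of -1.12. Pecam1 stood at 0.976, 2.26, 7.41 and 13.9 CPM against 11.4, 2.98, 20.5 and 33.98 CPM (log2 difference -1.37 ± 0.28, adjusted p = 0.0068), and the whole list summed to 12.7, 37.1, 182 and 218 CPM in positive and 165, 56.3, 336 and 374 CPM in zero cells. Of 5 thick ascending limb genes 2 were lower, Kcnj1 and Ppp1r1a, and the median was -0.87. When cells carrying genes of other types were left out, 1 endothelial gene could be tested, with a log2 difference of 0.36, and edgeR called 0 of 4 thick ascending limb genes, with a median of -0.23 and 0 at an unadjusted p under 0.05. Other lists did not all go this way: of 5 macrophage genes 1 was lower and the median was 0.41, and edgeR called 0 of 6 principal cell genes, 4 of which had an unadjusted p under 0.05. Sparc, a matrix protein of endothelial and stromal cells, stood at 11.7, 5.88, 16.7 and 42.2 CPM against 37.6, 14.04, 76.4 and 111 CPM (log2 difference -1.59 ± 0.17, adjusted p = 7.22e-06). The tetraspanins Cd9 (log2 difference -1.34 ± 0.15, adjusted p = 1.43e-05) and Tspan8 (log2 difference -1.41 ± 0.28, adjusted p = 0.028), the epithelial adhesion protein Epcam (log2 difference -1.19 ± 0.19, adjusted p = 0.00232), the calcium-binding Calb1 (log2 difference -1.26 ± 0.22, adjusted p = 0.0138) and the defensin Defb1 (log2 difference -1.18 ± 0.21, adjusted p = 0.026), all abundant in distal nephron segments, were lower too. Without cells carrying genes of other types, Calb1, Defb1, Tspan8 and Cryab were not called and Cd9 was, at a log2 difference of -1.14. The part of free RNA from other cells in these differences was not tested.

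Among genes of arginine and creatine metabolism, Asl and Odc1 were higher and Arg2 and Slc3a1 were lower. Asl, which follows Ass1 in arginine synthesis, stood at 682, 258, 327 and 352 CPM against 344, 219, 189 and 194 CPM (log2 difference 0.72 ± 0.12, adjusted p = 0.00411), and all 4 libraries were higher in positive cells. Arg2, which breaks arginine down, was lower (log2 difference -1.97 ± 0.43, adjusted p = 0.00963), as was Slc3a1, a subunit of the apical carrier of cystine and cationic amino acids (log2 difference -0.46 ± 0.12, adjusted p = 0.0327). Odc1, which makes polyamines from ornithine, stood at 440.2, 1578, 219 and 147 CPM against 335, 1305, 119.7 and 103 CPM (log2 difference 0.49 ± 0.11, adjusted p = 0.0177), a call that ended with depth-matched zero cells (adjusted p = 0.121). Of the 10 genes of this list 2 were higher and 2 lower, and the median was 0.25. With depth-matched zero cells 1 of 9 was higher and 0 lower, and in S1-led cells 2 of 9 were higher and 0 lower. DESeq2 called 4 of 10 higher and 0 lower. Arg2 and Slc3a1 were thus called lower in none of these. Without cells carrying genes of other types 3 of 9 were higher and 1 lower. Gatm, the first enzyme of creatine synthesis, gave 4869, 1530.0, 666 and 1392 CPM against 2743, 1308, 227 and 526 CPM and did not pass the test (log2 difference 0.99 ± 0.33, adjusted p = 0.268). Without wild type replicate 2 Gatm did, at a log2 difference of 1.25.

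Enzymes next to vitamin C and sialic acid were called as well. Akr1a1, the aldehyde reductase that in mice supplies the precursor gulonate for vitamin C synthesis, stood at 4868, 3938, 2553 and 2206 CPM against 3565, 2857, 1684 and 1400.0 CPM (log2 difference 0.54 ± 0.09, adjusted p = 0.0011). This call ended without cells carrying genes of other types (adjusted p = 0.0657). The glutaredoxin Glrx, which can recycle oxidised vitamin C, was higher too (log2 difference 0.43 ± 0.11, adjusted p = 0.0279), though not among S1-led cells (adjusted p = 0.363). Together 2 of 6 ascorbate genes were higher and 0 lower, with a median of 0.15. Of 8 genes of sialic acid and amino sugar metabolism, Renbp, an N-acylglucosamine epimerase, and Amdhd2, which deacetylates N-acetylglucosamine 6-phosphate, were higher, and the median was 0.01. Renbp stood at 169, 86.4, 70.3 and 136 CPM against 99.6, 70.3, 49.2 and 83.1 CPM (log2 difference 0.57 ± 0.11, adjusted p = 0.0059), and Amdhd2 stood at 105, 108, 72.2 and 92.3 CPM against 61.3, 88.5, 52.9 and 52.1 CPM (log2 difference 0.57 ± 0.12, adjusted p = 0.00745). Both were higher in positive cells of all 4 libraries.

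Besides Asl, the named genes with the largest higher values were led by Rnase4 and Gc. Rnase4, a ribonuclease, stood at 26.4, 2.26, 66.6 and 145 CPM against 9.55, 2.01, 13.4 and 43.7 CPM (log2 difference 1.68 ± 0.23, adjusted p = 0.00256). Gc, the vitamin D-binding protein that proximal cells usually take up from the filtrate, stood at 171, 9.04, 81.5 and 145 CPM against 59.00, 8.39, 28.7 and 66.8 CPM (log2 difference 1.16 ± 0.20, adjusted p = 0.0192). In wild type replicate 2 both genes were rare in positive and zero cells. Psph, the last step of serine synthesis, stood at 121, 71.4, 53.7 and 43.4 CPM against 50.01, 49.97, 16.4 and 22.4 CPM (log2 difference 1.02 ± 0.17, adjusted p = 0.0074). The transcription factor Cebpb (log2 difference 0.67 ± 0.14, adjusted p = 0.00637), the gulonate dehydrogenase Cryl1 (log2 difference 0.67 ± 0.11, adjusted p = 0.00189), the chemokine Cxcl16 (log2 difference 0.66 ± 0.17, adjusted p = 0.0406), the actin-bundling protein Espn of microvilli (log2 difference 0.66 ± 0.13, adjusted p = 0.00426), Mpp1 (log2 difference 0.65 ± 0.12, adjusted p = 0.00426), Spns3 (log2 difference 0.82 ± 0.19, adjusted p = 0.0467) and Rpusd3 (log2 difference 0.66 ± 0.14, adjusted p = 0.00644) were higher as well. Without cells carrying genes of other types the calls of Cebpb and Espn ended (adjusted p = 0.101 and 0.29), and among S1-led cells that of Cxcl16 (adjusted p = 0.32).

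The largest difference among the named genes was in Serpina1a, which encodes an alpha-1-antitrypsin. It stood at 0, 0.452, 13.9 and 16.3 CPM against 2.81, 0.591, 201 and 140.2 CPM (log2 difference -3.33 ± 0.23, adjusted p = 6.91e-09). The Serpina1a difference was carried by the Gulo-/- libraries, since the wild type libraries held almost none in either kind of cell. Among S1-led cells the log2 difference was -1.71 and still called. Serpina1a was not among the 14 genes, given below, that were called in all 4 narrower choices of cells.

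Segment genes followed the split described above. All 8 S1 genes had a positive log2 difference with a median of 0.53, and 0 passed the test with edgeR, while 2 had an unadjusted p under 0.05 and DESeq2 called 2. Without wild type replicate 2, 5 of 8 were higher with a median of 0.79, and with depth-matched zero cells 3 of 8. Slc5a2 stood at 284, 107, 221 and 313 CPM against 148, 107, 51.4 and 98.8 CPM (log2 difference 1.15 ± 0.48, adjusted p = 0.36). Of 6 S2 genes, 5 were negative, with a median of -1.15. edgeR called 0 of them, 2 had an unadjusted p under 0.05, and DESeq2 called 4 lower, as did edgeR without wild type replicate 2. Of 6 S3 genes Gsta2 was higher and Slc5a10, a sugar transporter, was lower, at 11.7, 13.1, 3.70 and 1.21 CPM against 41.96, 20.5, 39.9 and 7.35 CPM (log2 difference -1.66 ± 0.35, adjusted p = 0.0367). Gpx3, the secreted glutathione peroxidase of the proximal tubule, stood at 24779.8, 19045, 30038 and 24314 CPM against 17376, 17826, 19386 and 15314 CPM (log2 difference 0.48 ± 0.11, adjusted p = 0.0177), and among S1-led cells its call ended (adjusted p = 0.224). edgeR called 0 of 24 fatty acid oxidation genes and 0 of 13 mitochondrially encoded respiratory chain genes, with medians of -0.15 and -0.32. Unadjusted, 7 and 5 of them had a p under 0.05, and DESeq2 called 1 and 0. Without cells carrying genes of other types, 1 fatty acid oxidation gene was higher and 7 were lower, and 8 mitochondrial genes were lower.

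**Figure D3:**
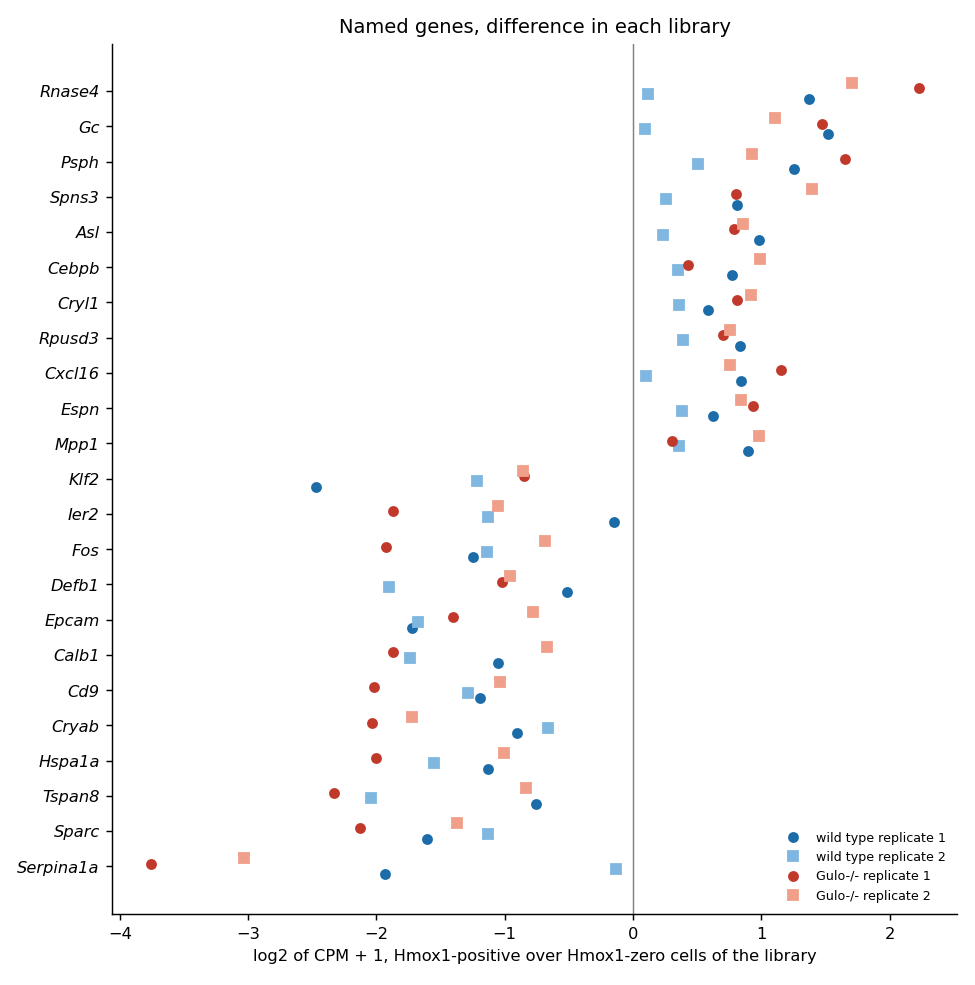
Difference between Hmox1-positive and Hmox1-zero cells of the same library (x axis, log2 of CPM + 1) for the named genes with the largest differences in each direction (y axis), with 1 marker for each library. Rnase4, Gc and Asl are to the right and Serpina1a to the left of 0, and wild type replicate 2 lies closest to 0 for Rnase4, Gc and Asl.

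In all 4 narrower choices of cells 14 genes kept their direction and call. The choices were depth-matched zero cells, S1-led cells, cells without genes of other types, and all of these at once. In the last of these the depths were not matched in Gulo-/- replicate 1, where 125 positive cells had a median of 5153 UMIs and 125 zero cells one of 3286. That choice held only 13 positive and 13 zero cells of wild type replicate 2, and 52 of each in Gulo-/- replicate 2. Only 3072 genes could be tested in it. This set was chosen after its values were seen. The 9 higher genes were Asl, Ftl1, Gc, Rnase4, the mitochondrial ATP synthase subunit gene Atp5g1, the proton pump subunit gene Atp6v1g1, the cytochrome c gene Cycs, the ADP/ATP carrier gene Slc25a4 and the ribosome assembly factor gene Rpf2. Slc25a4 stood at 1532, 670.0, 741 and 965 CPM in positive and 771, 509, 458 and 773 CPM in zero cells (log2 difference 0.60 ± 0.10, adjusted p = 0.00256). The 5 lower genes were Cd81, Igfbp7, Itm2b, Rnaset2a and Tmbim6, of which Itm2b, a membrane protein of the secretory pathway, stood at 531, 607, 668 and 1427 CPM against 752, 795, 1188 and 2067 CPM (log2 difference -0.56 ± 0.08, adjusted p = 0.00057). Rnase4 and Itm2b were also called with each library left out in turn.

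**Figure D4:**
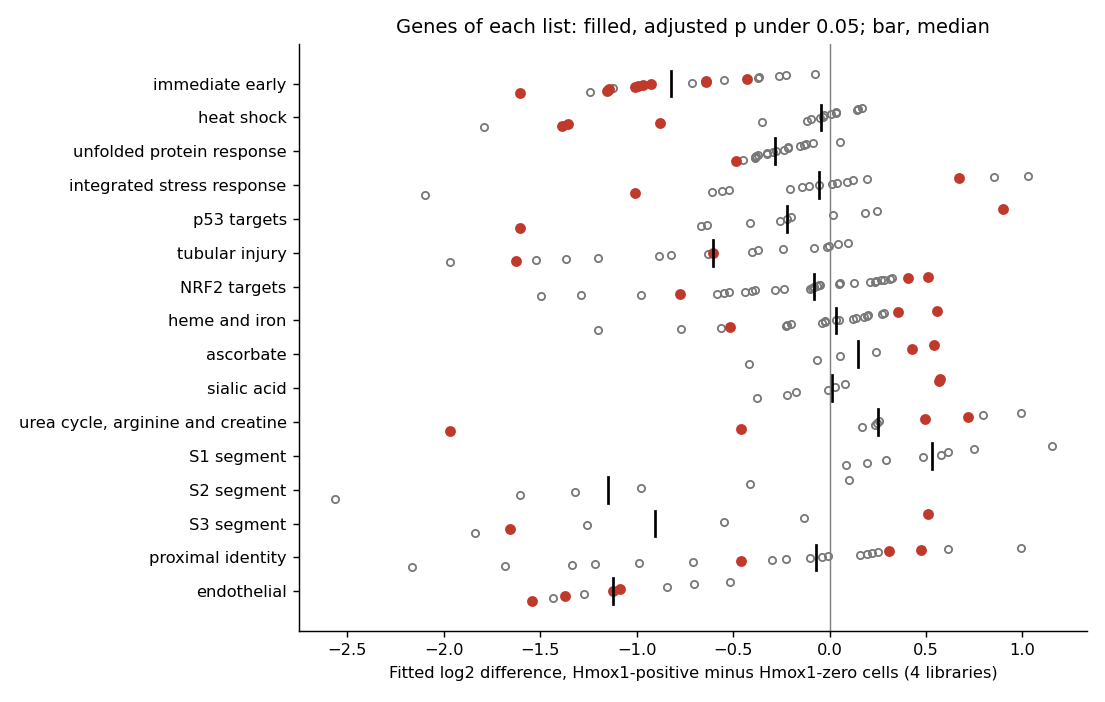
Fitted log2 difference of each tested gene between Hmox1-positive and Hmox1-zero cells (x axis) by gene list (y axis). Filled points passed an adjusted p of 0.05 and bars mark list medians. Immediate early genes lie left of 0 with a median of -0.82, S1 genes lie right of it with a median of 0.53, and NRF2 targets lie on both sides with a median of -0.08.

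The third comparison asked whether Hmox1-positive cells of Gulo-/- kidneys differed from those of wild type kidneys. In these cells 3 of 7407 genes (0.0405%) were called. Ly6c1, a surface protein of endothelial and myeloid cells, was higher in Gulo-/-, at 97.2 and 124 CPM against 6.83 and 11.8 CPM in wild type (log2 difference 3.45 ± 0.34, adjusted p = 0.0294). Keg1, a kidney enzyme of the glycine acyltransferase family, was lower in Gulo-/-, at 289.7 and 277 CPM against 2045 and 2509.7 CPM (log2 difference -3.04 ± 0.31, adjusted p = 0.0294). The third was the gene model BC026585, which was lower and lies outside the rule for named genes. Unadjusted, 1346 genes had a p under 0.05. None of the 3 was called without Gulo-/- replicate 2, or with at least 3 Hmox1 UMIs per cell. Zero cells held 67.99, 28.1, 113 and 261 CPM of Ly6c1, with the Gulo-/- libraries higher there too. Keg1 differed little between positive and zero cells in the edgeR fit over the libraries (log2 difference 0.16 ± 0.10, adjusted p = 0.403). Its genotype difference is thus not shown to be particular to Hmox1-positive cells. The markers Gsta4 and Npl, whose levels are given above, were each higher in both Gulo-/- libraries than in both wild type libraries. Neither passed the test (log2 difference 1.03 ± 1.68, adjusted p = 0.784 for Gsta4, and log2 difference 0.94 ± 0.84, adjusted p = 0.597 for Npl), and wild type replicate 2 was far below the other libraries for both.

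Whether the positive-to-zero difference itself varied with genotype was tested as an interaction. For 37 of 8893 genes (0.416%) it did, with 28 log2 differences more positive in Gulo-/- and 9 more negative. By library the 2 genotypes did not overlap for any of the 37. A gene called on 2 against 2 libraries is nearly bound to separate in this way, so this adds no evidence. The share over all tested genes was not counted. In a fit added after seeing the data, which left out cells carrying genes of other types, the interaction called 17 genes. Of the 37, 30 could be tested there, 26 kept their direction and 7 their call, and their median absolute value was 0.67 beside 1.25. The interaction called 112 genes without wild type replicate 2, 23 of them among the 37. Gatm was higher in positive cells by log2 differences of 0.83 and 0.23 in wild type replicates 1 and 2 and by 1.55 and 1.40 in the Gulo-/- replicates, and the interaction was 1.08 ± 0.18, adjusted p = 0.0105. Slc7a7, which exports cationic amino acids across the basolateral membrane, gave 0.66 and 0.01 in wild type replicates 1 and 2, where the Gulo-/- replicates gave 1.31 and 1.21 (1.07 ± 0.23, adjusted p = 0.0351). Id3, an inhibitor of differentiation factors, was higher in positive cells of the wild type libraries, with 0.64 and 0.31, and lower in the Gulo-/- libraries, with -0.83 and -0.99 (-1.27 ± 0.23, adjusted p = 0.0105). The glycine decarboxylase Gldc (1.36 ± 0.27, adjusted p = 0.0253) and the brush border dipeptidase Dpep1 (1.31 ± 0.29, adjusted p = 0.046) had more positive differences in Gulo-/-. The interaction without cells carrying genes of other types was 0.85 for Gatm and still called (adjusted p = 0.00611), turned to 0.26 for Id3, and was not called for Slc7a7, Gldc and Dpep1, at 0.56, 0.77 and 0.84.

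Slc7a13, Slc6a18 and Ces1f had more negative differences in Gulo-/-. Of the 6 S3 genes tested for the interaction, 1 was called. Slc7a13, an S3 aspartate and glutamate transporter, had log2 differences of -1.43 and -0.18 in wild type replicates 1 and 2, where the Gulo-/- replicates gave -3.96 and -2.83 (-3.58 ± 0.48, adjusted p = 0.000735), and wild type replicate 1 held 0 UMIs of it in positive cells. Slc6a18, an apical glycine transporter of the later segments, gave -2.36 ± 0.40, adjusted p = 0.0105, and the esterase Ces1f gave -2.05 ± 0.41, adjusted p = 0.0253. Of the 37 genes 9 were mitochondrial, and all 9 had a more positive difference in Gulo-/-. For mt-Co1, a subunit of cytochrome c oxidase, the CPM were 12238, 9897, 31743 and 29656 in positive and 15858, 16481, 32578 and 30171 in zero cells (0.66 ± 0.13, adjusted p = 0.026). It was lower in positive cells of the wild type libraries and nearly level in the Gulo-/- libraries. The interaction of mt-Co1 without cells carrying genes of other types was 0.02, and edgeR called 0 of 13 mitochondrial respiratory chain genes, 1 of which had an unadjusted p under 0.05. The gap in median depth between positive and zero cells, given above, was also wider in both wild type libraries than in both Gulo-/- libraries, and its part was not tested.

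**Figure D5:**
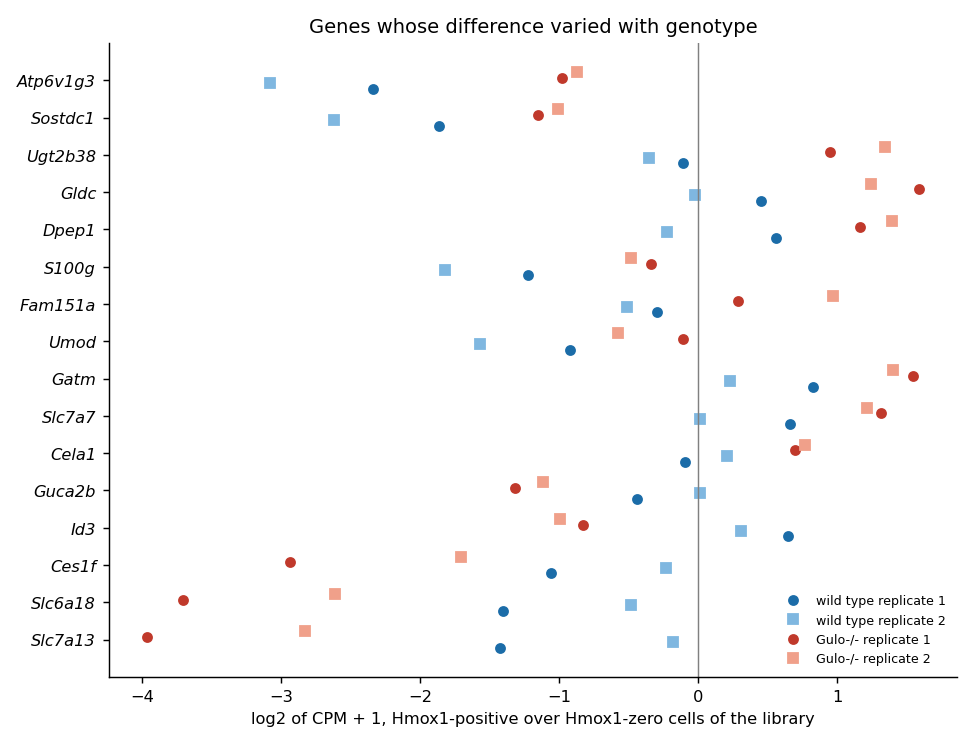
Difference between Hmox1-positive and Hmox1-zero cells of each library (x axis, log2 of CPM + 1) for named genes whose difference varied with genotype (y axis), with 1 marker for each library. The markers of the 2 genotypes do not overlap for any gene shown, which the rule for named genes requires. Slc7a13 lies further left and Gatm further right in the Gulo-/- libraries.

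Genes of other cell types were also among the 37. Tyrobp, a myeloid adaptor protein, gave an interaction of 2.40 ± 0.44, adjusted p = 0.0281, with 1.95, 16.3, 4.63 and 81.4 CPM in positive and 14.2, 21.3, 2.98 and 26.8 CPM in zero cells. Umod of the thick ascending limb gave 1.20 ± 0.24, adjusted p = 0.026, at 12.7, 97.7, 143 and 1413 CPM in positive and 24.9, 292, 154 and 2104 CPM in zero cells. The proton pump subunit Atp6v1g3 of intercalated cells gave 2.35 ± 0.30, adjusted p = 0.00064. A gene called over 4 libraries is nearly bound to keep its direction with 1 left out, so the next counts of directions add no evidence. Without Gulo-/- replicate 2 the interaction had 3 calls, 0 of them among the 37, though 35 of 35 that could be tested kept their direction, with a median absolute value of 1.39 beside 1.31. The interaction of Umod turned to -0.062 without cells carrying genes of other types and that of Atp6v1g3 was 0.55 and not called, while Slc7a13 (-4.21, adjusted p = 5.18e-06) and Ces1f (-2.70, adjusted p = 0.013) kept their calls. Slc6a18 gave -2.55 with an adjusted p of 0.0528.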

How the data were processed

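Single-cell libraries of kidney from 2 wild type and 2 Gulo-/- samples were used, grouped by the genotype in the labels. The authors deposited, for each library, a matrix of raw UMI counts, used here as it is. No source used here names the tool that made the counts. The submitters' processing notes name mm10, Seurat 2.3.4 and MACS2 2.1.2. The authors' deposited table of cluster markers gives natural log (ln) ratios and other values, the shares of cells with a gene. The bisulfite, m6A and bulk RNA samples were not used here.

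Barcodes with at least 500 UMIs, 200 genes and at most 50% mitochondrial UMIs were kept (Python 3.11.15, scanpy 1.11.5, numpy 2.4.6, scipy 1.17.1). Kept barcodes numbered 1595, 7541, 1877 and 13962. Cells were kept whether or not Scrublet marked them as doublets, and an alternative left the marked cells out. UMI counts were summed per library and kind of cell and tested with edgeR 4.0.16 in R 4.3.3 (TMM, filterByExpr, robust quasi-likelihood F test, Benjamini-Hochberg threshold 0.05). The first fit had the library as a block, and the interaction fit added genotype. DESeq2 1.42.0 was an alternative. Other alternatives changed the scaling, the filters, the Hmox1 limit, the zero cells and the cells kept, or left out each library. Depth-matched zero cells were those of the same library nearest in depth to each positive cell. Fits were tested on simulated data. Binomial intervals are exact (Clopper-Pearson), 95%, and cover counting error only.

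The cells, the gene lists and the rule for named genes were chosen with earlier results of these data known. That rule took called genes with the same direction in every library (or genotypes that do not overlap) and a mean of at least 50 CPM, up to 12 per direction, with up to 6 called and 4 uncalled members per list. A gene that this rule takes is not reported here. Added after seeing the data were the fits on S1-led cells, on depth-matched S1-led cells without genes of other types, the interaction without cells carrying such genes, the segment test without wild type replicate 2, and 2 further shares.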

Additional observations from a re-analysis of the deposited data

Results flagged for a closer look

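These results were taken out because the difference between Hmox1-positive and Hmox1-zero cells varied between the genotypes in a test of the interaction itself. There were 37 such genes, of which 7 were also called without cells carrying genes of other types: among the genes below these were Slc7a13, Ces1f, Guca2b, Gatm and Ugt2b38. Each value below is the log2 difference in the Gulo-/- libraries minus that in the wild type libraries.

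More positive in Gulo-/- were Atp6v1g3 (2.35), a proton pump subunit gene of intercalated cells, Sostdc1 (1.84), Ugt2b38 (1.59), Gldc (1.36), Dpep1 (1.31), S100g (1.27), Fam151a (1.24), Umod (1.20), Gatm (1.08), Slc7a7 (1.07) and the elastase gene Cela1 (0.81). For S100g, a calcium-binding protein of the distal nephron, the library differences were -1.22 and -1.82 in wild type replicates 1 and 2, where the Gulo-/- replicates gave -0.34 and -0.49. More negative were Slc7a13 (-3.58), Slc6a18 (-2.36), Ces1f (-2.05), Id3 (-1.27) and the uroguanylin gene Guca2b (-0.91). Among these genes Id3 had opposite directions in the genotypes in every library.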

How the results depend on the processing

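The difference in the share of Hmox1-positive cells was above 0 under all settings tried, 1.72 to 11.9 points, and 0.945 to 15.7 points with each library left out. The log2 difference of Hmox1 in all gated cells was 1.25 and turned to -0.25 without Gulo-/- replicate 1 (range -0.25 to 2.08 over left-out libraries). The positive against zero comparison called 383 genes, and 798 without a filter on low counts, 579 without the highest doublet scores, 90 in depth-matched S1-led cells without genes of other types, and 45 to 775 with each library left out. The genotype comparison within positive cells called 3 genes, and 102 with DESeq2, 15 with RLE scaling, 780 without a filter, 17 without the highest doublet scores, 0 with at least 3 Hmox1 UMIs, 32 without cells carrying genes of other types, 39 in S1-led cells, 0 with sex as a block, and 0 to 510 with each library left out. The interaction called 37 genes, 17 without cells carrying genes of other types, and 3 to 250 with each library left out. Gstm2 turned to 0.22 and Hspa1b to 0.24 without cells carrying genes of other types, and Defb1 to 0.31 in depth-matched S1-led cells without such genes. In the interaction Id3 turned to 0.26, Sostdc1 to -1.14 and Umod to -0.062 without such cells. The cause was not tested.

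The replicate numbers are shared by the genotypes only as numbers, and the deviations of same-numbered libraries correlated at 0.046 over 7407 genes. With the number as a replicate block 0 genes were called within positive cells (1319 with an unadjusted p under 0.05), and the Hmox1 difference in gated cells was 1.06 with an adjusted p of 0.175.

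With 2 libraries per genotype the exact test cannot go below 0.333, and genes such as Serpina1a in wild type are too rare in 108 to 272 cells per library for a firm value.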

Other observations

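In the authors' deposited table of cluster markers Hmox1 and Gsta4 are not listed for any cluster. Npl is listed for the cluster named PT-BB alone, with a natural log ratio of 0.729, found in 47.6% of its cells and 13.2% of the others, without replicate error. Ass1, Miox and Fbp1 are listed for the same cluster in the authors' deposited table with ln ratios of 1.30, 1.30 and 1.15. The limit on C1q genes kept out 26 cells with at least 2 Hmox1 UMIs, and the limit on Miox, Ass1 and Fbp1 kept out 87.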
